A study of Mus musculus and Homo sapiens with 12 samples.

Results

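The AP-1 and immediate-early genes examined here are FOS, FOSB, JUN, JUNB, JUND, ATF3, EGR1, NR4A1, IER2 and DUSP1, read in mouse fetal liver progenitors with Ddx21 deleted and in human progenitors with less DDX21. They were taken as a fixed list of names and matched by symbol without regard to case. All 10 were found among the 55487 mouse and 78932 human genes counted. Enough reads for a test were present for 7 of them in the mouse and for 10 in the human cells.

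Immediate-early genes are transcribed within minutes of a stimulus, without new protein synthesis, mostly through MAP kinase signalling to factors such as SRF, the ELK proteins and CREB that already sit at their promoters. FOS and JUN proteins form the dimeric transcription factor AP-1, and JUNB, JUND, FOSB and ATF3 are alternative partners with differing activity. EGR1 is a zinc-finger factor and NR4A1 a nuclear receptor that acts without a known ligand requirement. IER2 is a short nuclear protein with no single settled role, and DUSP1 is a phosphatase that switches MAP kinases off. In blood stem and progenitor cells EGR1, NR4A1 and JUNB are known for restraining proliferation. The same transcripts are also known to rise while tissue is dissociated and cells are sorted.

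The mouse libraries came from lineage-negative, Kit-positive (LK) cells sorted from fetal liver of E13.5 embryos. The WT group was Ddx21f/f without Cre, and the cKO group was Vav-Cre; Ddx21f/f, so both carried floxed alleles and only the second carried Cre, driven by a promoter active in blood cells. Tissue and cells were kept cold through harvest and sorting, per the labels' protocols. The human libraries came from blood stem cell-like cells (HSC) derived from H1, a line of embryonic stem cells. Lentivirus delivered shNC-mCherry, a control hairpin, or shDDX21-mCherry, a hairpin against DDX21, and the cells were sorted 2 days later as CD34+ CD45+ CD43+ cells carrying the vector. Each group had 3 libraries of polyadenylated RNA. The labels do not say whether these came from separate embryos or cultures, or whether embryos were pooled, so p-values measure only the spread between these samples, which may be technical.

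The libraries held 21116079 to 23898130 counts in the mouse and 15289510 to 19798608 in the human experiment. Levels are CPM (counts divided by the TMM-scaled library size), and 3 counts, the limit that a count of 0 allows, correspond to 0.122 to 0.146 CPM in the mouse and 0.154 to 0.196 CPM in the human libraries. The targeted gene was at 1424 ± 12.5 CPM in WT cells and 280.2 ± 3.62 CPM in cKO, and at 470.1 ± 6.05 CPM in shNC and 68.3 ± 1.14 CPM in shDDX21 (SD, n = 3 each). Of the markers used in the sorts, Kit was at 362.3 CPM in WT cells and 316.9 CPM in cKO cells. CD34 rose from 248.6 CPM in shNC to 297.5 CPM in shDDX21 and SPN (CD43) from 690.8 to 883.0 CPM, while PTPRC (CD45) fell from 94.9 to 69.4 CPM. The progenitor factor genes GATA2 (434.6 to 199.6 CPM), RUNX1 (366.6 to 261.9 CPM) and MYB (99.3 to 65.3 CPM) also fell in the human cells, and KIT (170.2 to 186.4 CPM) was called higher. Of 7 mouse progenitor markers, 2 were called higher in cKO, Cd34 (133.7 to 215.2 CPM) and Ptprc (70.9 to 101.3 CPM). Another 2, Kit and Spn (331.2 to 300.7 CPM), were called lower. Summed over 5 genes, hepatocyte markers were at 1.31 to 1.67 CPM in WT libraries and 28.0 to 31.7 CPM in cKO libraries, and 5 endothelial markers were at 44.9 to 47.7 CPM and 83.1 to 91.7 CPM. Over 6 granulocyte and monocyte genes the sums were 611.3 to 838.7 CPM in WT and 299.4 to 534 CPM in cKO. In the human experiment 4 of these were matched, with sums of 529.2 to 542.9 CPM in shNC and 455.5 to 458.9 CPM in shDDX21. Of the 4, MPO (163.2 to 31.6 CPM), ITGAM and S100A8 were called lower and CSF1R (360.6 to 419.5 CPM) higher. Over 6 mouse macrophage genes the sums were 2.60 to 3.26 CPM and 1.01 to 1.95 CPM, with C1qa and C1qb at 0 or 1 count in every library and Adgre1 called lower. The 2 matched in the human cells, C1QA and C1QB, summed to 8.52 to 11.7 CPM and 3.19 to 5.54 CPM. Lymphoid markers summed to 18.25 to 21.1 CPM in WT and 3.57 to 3.85 CPM in cKO. In the human cells they summed to 33.3 to 36.1 CPM in shNC and 11.3 to 12.7 CPM in shDDX21. Of the 4 tested there, only IL7R (29.3 to 5.84 CPM) was called, and their median log2 fold change was 0.33. In the human cells 5 endothelial markers summed to 1520 to 1562 CPM in shNC and 1390 to 1409 CPM in shDDX21. Of these, 2 were called lower, KDR (1007 to 813.8 CPM) and CDH5, and 2 higher, TEK and ESAM. LIN28A and DPPA4, which are also made in undifferentiated stem cells, summed to 229.7 to 238.7 CPM and 278.1 to 288.5 CPM. LIN28A was called higher and DPPA4 was not called. The part of other cell types in the results below was not tested. In these bulk samples, fewer cells of a type and less RNA per cell cannot be told apart. The mouse libraries also differed within groups by the GC content of the transcript, with WT 3 and cKO 2 low and WT 1 and cKO 1 high for GC-rich genes. Variation between replicates beyond counting error, which may be technical, was 10.5% in the mouse and 2.23% in the human experiment.

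In the mouse progenitors, 3 of the immediate-early genes rose with deletion of Ddx21: Egr1 12.4-fold, Nr4a1 2.91-fold and Jun 2.46-fold. The other 4 genes that could be tested, Fos, Junb, Ier2 and Dusp1, did not pass the test, and Fosb, Jund and Atf3 were at or near the detection limit in both genotypes. None was called lower by edgeR's quasi-likelihood test, DESeq2 or limma-voom, and 1, Dusp1, was lower at an unadjusted p under 0.05. Of all 14918 mouse genes tested, 36.5% were called in either direction, 20.7% higher and 15.8% lower in cKO, against 3 of 7 and 0 of 7 here. A change of at least 2-fold was also met by 9.08% of all genes and by 3 of these 7. The median log2 fold change was 0.26 over the 7 genes and 0.00057 over all genes tested.

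**Figure D1:**
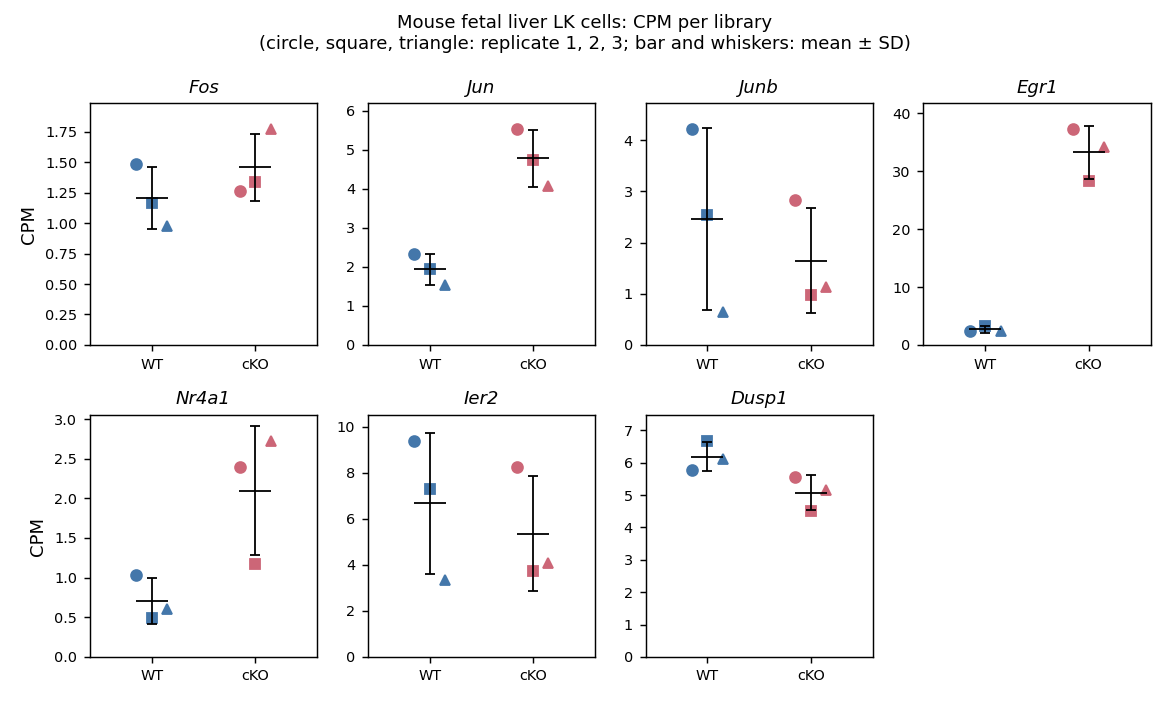
CPM of the 7 tested immediate-early genes in the 3 WT and 3 cKO mouse libraries, in a panel per gene, with points for libraries and bars for the group mean ± SD. Egr1 stands at 28.2 to 37.2 CPM in cKO against 2.33 to 3.31 CPM in WT, and the Junb and Ier2 points overlap between the genotypes.

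Among the AP-1 subunits, Jun (ENSMUSG00000052684; GRCm38 chromosome 4, 95049034 to 95052222, minus strand) was counted 52, 40 and 33 times in the WT libraries and 127, 117 and 90 times in the cKO libraries. These are 2.33, 1.95 and 1.53 CPM in WT and 5.53, 4.74 and 4.08 CPM in cKO. Every cKO library was above every WT library, and the log2 fold change was 1.30 (adjusted p 0.00184, SE 0.19). The antisense gene Junos overlaps it and had 2 to 15 counts per library. Junb (chromosome 8, 84976910 to 84978718, minus strand), a JUN relative with weaker activating capacity, was at 4.22, 2.53 and 0.650 CPM in WT and 2.83, 0.973 and 1.13 CPM in cKO. Its libraries overlapped between the genotypes, and the highest WT library was 6.49 times the lowest. The log2 fold change of -0.59 (adjusted p 0.503, SE 0.64) had no settled sign, and ran from -1.22 without cKO 1 to 0.055 without WT 1. Jund (chromosome 8, 70698949 to 70700616, plus strand), the third JUN protein, had 0 counts in all 6 libraries, which allows up to 0.146 CPM of counted reads. Gm11175, on the other strand from 70699162 to 70700080, overlaps it and also had 0 counts, and whether reads over both genes were left uncounted was not tested. Its transcript has 67.2% GC; of 62 protein-coding genes with at least that GC content, 51.6% had 0 counts in all 6 libraries, against 24.7% of 21897 protein-coding genes in all.

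Fos (chromosome 12, 85473890 to 85477273, plus strand), the main dimer partner of JUN, was counted 33, 24 and 21 times in the WT libraries and 29, 33 and 39 times in the cKO libraries. That is 1.21 ± 0.255 CPM in WT cells and 1.46 ± 0.273 CPM in cKO cells (SD, n = 3 each). The groups overlapped and the log2 fold change of 0.26 (adjusted p 0.404, SE 0.23) did not pass the test. Fosb (chromosome 7, 19302696 to 19310051, minus strand) was counted 5, 3 and 0 times in the WT libraries and 0, 2 and 6 times in the cKO libraries, and Atf3 (chromosome 1, 191170296 to 191218039, minus strand), a stress-induced factor of the same dimer class, had 0 in each WT library and 1 in each cKO library. Neither could be tested, and no fold is given for Atf3, which is under the limit of 3 counts in both genotypes.

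The sequence just upstream of these genes shows which known control elements lie close to their start sites. RefSeq promoters on GRCm38.p6 were used for 8 of the 10 mouse genes, and the 250 bases before the start were searched on both strands. The elements were the cAMP response element (CRE) TGACGTCA, its half-site TGACG, which each full CRE also contains, the AP-1 site TGANTCA, the CArG box bound by SRF, and the EGR site GCGGGGGCG. The windows shown are those of Jun and Nr4a1, which were called higher in cKO, and of Fos and Dusp1, which were not called. Capitals mark the CRE half-site and the EGR site in either orientation, and each sequence runs 5′ to 3′ on the gene's strand and ends at the base before the start.
Jun, chr4:95052223-95052472, minus strand: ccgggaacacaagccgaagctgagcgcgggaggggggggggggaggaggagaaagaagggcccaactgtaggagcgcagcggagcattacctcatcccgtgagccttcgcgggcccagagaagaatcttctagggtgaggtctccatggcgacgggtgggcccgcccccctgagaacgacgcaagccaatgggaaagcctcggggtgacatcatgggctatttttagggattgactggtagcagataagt
Nr4a1, chr15:101266596-101266845, plus strand: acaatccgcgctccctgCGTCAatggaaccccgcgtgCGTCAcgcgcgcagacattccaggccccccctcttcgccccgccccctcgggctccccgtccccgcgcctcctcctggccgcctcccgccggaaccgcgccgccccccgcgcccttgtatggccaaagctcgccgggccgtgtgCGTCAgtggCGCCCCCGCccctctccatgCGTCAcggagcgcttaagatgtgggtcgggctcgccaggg
Fos, chr12:85473640-85473889, plus strand: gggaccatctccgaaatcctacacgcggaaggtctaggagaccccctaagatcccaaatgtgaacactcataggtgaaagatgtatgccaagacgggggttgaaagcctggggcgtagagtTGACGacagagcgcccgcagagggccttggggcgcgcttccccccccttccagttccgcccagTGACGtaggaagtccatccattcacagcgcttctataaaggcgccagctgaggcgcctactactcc
Dusp1, chr17:26508473-26508722, minus strand: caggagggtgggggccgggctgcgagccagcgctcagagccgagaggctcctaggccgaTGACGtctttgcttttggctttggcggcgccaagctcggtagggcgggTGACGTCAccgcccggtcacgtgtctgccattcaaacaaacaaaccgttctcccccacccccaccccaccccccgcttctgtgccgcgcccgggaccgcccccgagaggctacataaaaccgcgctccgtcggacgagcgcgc

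A CRE half-site was in 6 of the 8 windows, against 17.8% of 32851 RefSeq promoter windows of the same length. The 8 windows ran from 47.6% GC for Jund to 74.4% GC for Nr4a1, and the RefSeq windows were not matched to them for GC content. Nr4a1 had 4 of them and an EGR site, Dusp1 had 3, of which 2 form its full CRE, and Fos had 2. Jun and Jund had none, and Fosb, Junb and Atf3 had 1 each. The full CRE was in 1 of 8 (1.55% of all), the EGR site in 2 of 8, Nr4a1 and Fosb (2.57% of all), and neither the AP-1 site (6.75% of all) nor the CArG box (1.47% of all) was in any. These are exact matches of letters in a short window, so near matches and sites farther upstream were not counted. The Jun window holds TGACATCA, which differs from the full CRE by 1 base and is matched by none of the patterns. By these exact patterns Jun was called with no half-site, and Dusp1 was not called with 3. Whether any of these elements had a part in the changes was not tested. The RefSeq start of Jund lies upstream of the gene model that was counted.

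Egr1 (ENSMUSG00000038418), on chromosome 18, had the largest change of the 7 genes tested. It was counted 52, 68 and 52 times in the WT libraries and 855, 697 and 755 times in the cKO libraries, which is 2.33, 3.31 and 2.41 CPM against 37.2, 28.2 and 34.2 CPM. The lowest cKO library was far above the highest WT library, with a log2 fold change of 3.63 (adjusted p 8.41e-06, SE 0.17). Leaving out any 1 library moved it between 3.54 and 3.80. Nr4a1 (chromosome 15, 101254269 to 101274795, plus strand) was counted 23, 10 and 13 times in the WT libraries and 55, 29 and 60 times in the cKO libraries, at 1.03, 0.487 and 0.603 CPM against 2.40, 1.18 and 2.72 CPM. The cKO libraries were all above the WT libraries, but cKO 2 exceeded WT 1 by little. Its log2 fold change was 1.54 (adjusted p 0.0220, SE 0.40). The call was lost without WT 2 (1.33, adjusted p 0.0809), without WT 3 (1.43, adjusted p 0.0567) and without cKO 3 (1.31, adjusted p 0.0791).

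Ier2 (chromosome 8, 84661331 to 84662854, minus strand) was at 9.37, 7.30 and 3.34 CPM in WT and 8.23, 3.73 and 4.08 CPM in cKO. The groups overlapped over most of their range, and the log2 fold change of -0.32 (adjusted p 0.585, SE 0.42) went to 0.0076 without WT 1 and to -0.76 without cKO 1. Dusp1 (chromosome 17, 26505590 to 26562128, minus strand), the MAP kinase phosphatase, had the tightest replicates. It was at 5.79, 6.67 and 6.13 CPM in WT and 5.57, 4.50 and 5.17 CPM in cKO, so that every cKO library lay below every WT library. The log2 fold change of -0.29 (adjusted p 0.105, SE 0.12) did not pass the test. With an offset for GC content it was -0.39 (adjusted p 0.0139) and was called lower. The far end of its annotated span overlaps Ergic1 on the other strand, and whether the counting used strand is not given in the sources used here.

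The highest library was farthest from the lowest for Junb, at 62.6% GC the tested gene with the most, in both genotypes. After it came Ier2 in WT (2.81 times) and Nr4a1 in cKO (2.315 times, against 2.21 for Ier2). Junb, Ier2 and Nr4a1, with 62.6%, 60.9% and 57.0% GC, had a highest library 2.12 to 6.49 times the lowest in WT and 2.21 to 2.91 times in cKO. Dusp1, Fos and Jun, with 54.0%, 51.9% and 55.5% GC, had ratios of 1.15 to 1.52 in WT and 1.24 to 1.40 in cKO, and Egr1, at 57.3% GC, had 1.42 and 1.32. Over the 413 tested genes with 60 to 65% GC, the median deviation from the group's mean log2 CPM was 0.27, 0.13 and -0.38 in WT 1, 2 and 3 and 0.37, -0.35 and -0.011 in cKO 1, 2 and 3. Over the 1173 tested genes under 40% GC it stayed between -0.056 and 0.068. Junb and Ier2 deviated with the same order of libraries in WT as the other GC-rich genes did. The median log2 fold change also moved with GC content, from 0.043 under 40% to -0.35 at 60 to 65%. In a fit with a GC-content offset, Egr1 was at 3.64 (adjusted p 8.53e-08), Nr4a1 at 1.53 (adjusted p 0.00408) and Jun at 1.25 (adjusted p 0.000215), and Junb and Ier2 were at -0.39 and -0.19, neither called. What set the GC dependence was not tested.

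**Figure D2:**
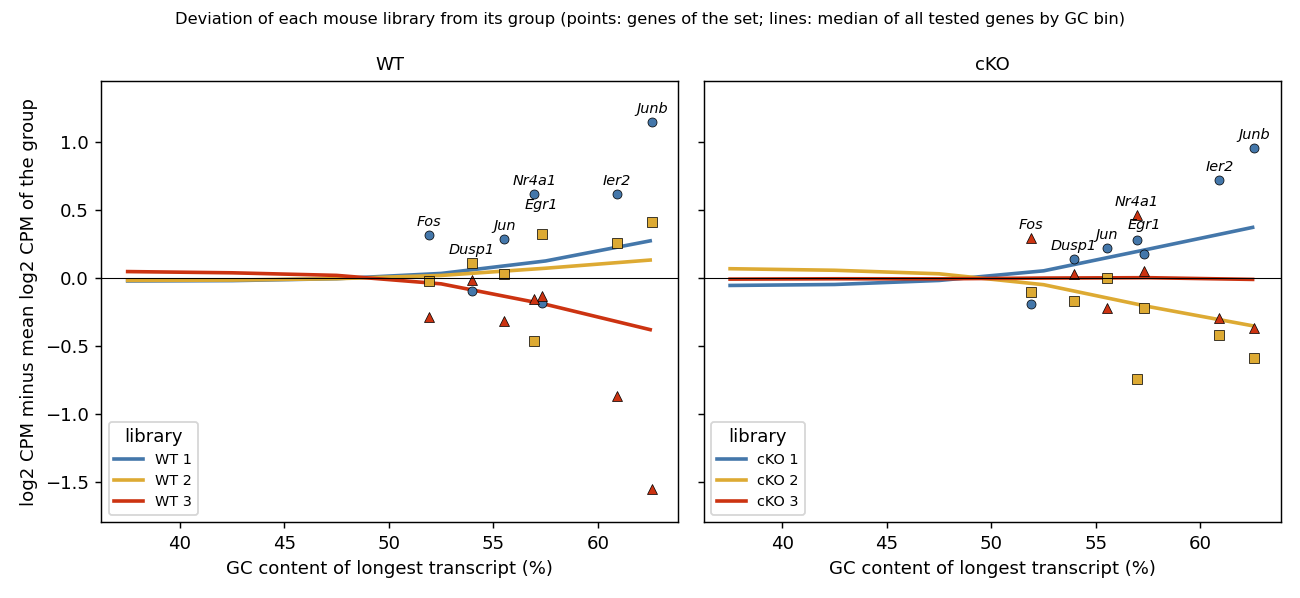
Deviation of each mouse library from the mean log2 CPM of its genotype against GC content of the longest transcript, WT left and cKO right. Points are the 7 tested immediate-early genes and lines join the medians of all tested genes in GC bins; at 60 to 65% GC the WT 3 and cKO 2 medians are at -0.38 and -0.35, and the Junb and Ier2 points spread farther than the lines.

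In the human progenitors all 10 genes had 174 or more counts in every library, and knockdown of DDX21 moved 9 of them by small amounts in either direction. JUN, JUND, NR4A1 and DUSP1 rose, and EGR1, JUNB, FOSB, IER2 and FOS fell, while ATF3 was not called. The log2 fold changes ran from -0.59 for FOSB to 0.57 for JUN. That is 4 of 10 called higher and 5 of 10 lower by edgeR's quasi-likelihood test, against a background in which 52.7% of 20188 genes were called, 25.3% higher and 27.4% lower. None of the 10 met a 2-fold change, which 7.18% of all genes did. The median log2 fold change was -0.063 over the 10 genes and 0.0052 over all genes.

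**Figure D3:**
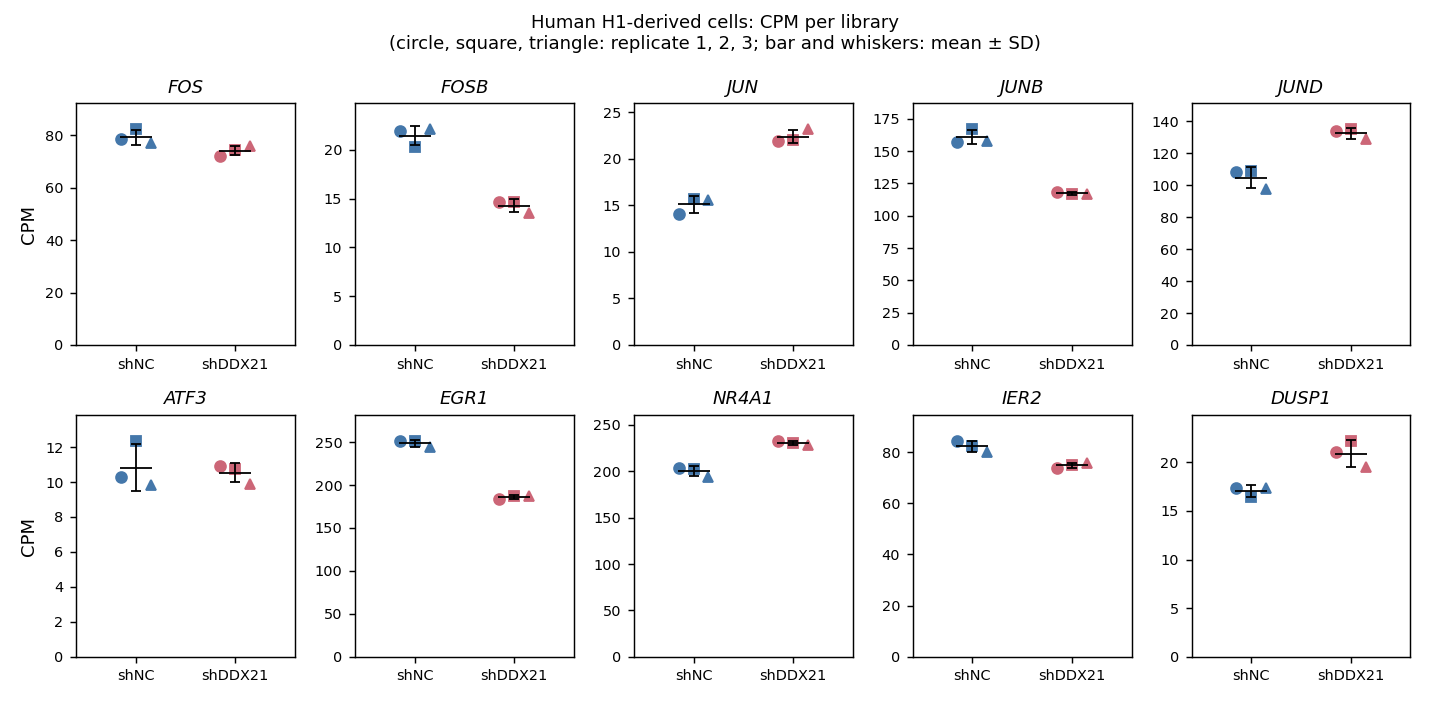
CPM of each immediate-early gene in the 3 shNC and 3 shDDX21 human libraries, in a panel per gene, with points for libraries and bars for the group mean ± SD. EGR1 and JUNB lie lower and JUND, NR4A1 and JUN higher in every shDDX21 library than in any shNC library, and the ATF3 points overlap.

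The 3 JUN genes moved in different directions. JUN (hg38 chromosome 1, 58776845 to 58784048) was at 14.1, 15.7 and 15.6 CPM in shNC and 22.0, 22.1 and 23.2 CPM in shDDX21, a log2 fold change of 0.57 (adjusted p 2.44e-09, SE 0.078). JUND (chromosome 19, 18279694 to 18281622), the JUN protein usually made in resting cells, was at 107.9, 109.0 and 97.3 CPM in shNC and 133.7, 134.9 and 128.7 CPM in shDDX21, a log2 fold change of 0.34 (adjusted p 1.49e-13, SE 0.035). JUNB (chromosome 19, 12791486 to 12793315) was at 157.3, 166.8 and 157.7 CPM in shNC and 118.6, 116.5 and 117.0 CPM in shDDX21, a log2 fold change of -0.45 (adjusted p 5.90e-21, SE 0.032). For each of the 3 genes the groups did not overlap. HOOK2 overlaps JUNB on the other strand with 377 to 453 counts per library, against 1965 to 2973 for JUNB.

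Of the FOS genes, FOSB (chromosome 19, 45467995 to 45475179) was counted 415, 311 and 393 times in the shNC libraries and 285, 248 and 237 times in the shDDX21 libraries. Its level went from 21.5 ± 1.01 CPM to 14.3 ± 0.676 CPM (SD, n = 3 each), with no overlap and a log2 fold change of -0.59 (adjusted p 1.55e-09, SE 0.080). It overlaps ERCC1, a DNA repair gene on the other strand with 916 to 1272 counts, so a share of its reads could belong to that gene if strand was not used. FOS (chromosome 14, 75278826 to 75283190) was at 78.4, 82.2 and 76.9 CPM in shNC and 72.2, 74.2 and 75.7 CPM in shDDX21. The groups lay next to each other without overlap, and the log2 fold change of -0.096 (adjusted p 0.0369, SE 0.040) was lost in 7 of 14 alternatives, including upper-quartile scaling (adjusted p 0.602) and leaving out shNC 2 (0.166), shDDX21 1 (0.168) or shDDX21 2 (0.0627). ATF3 (chromosome 1, 212565334 to 212620777) was at 10.3, 12.3 and 9.85 CPM in shNC and 10.9, 10.7 and 9.91 CPM in shDDX21, with a log2 fold change of -0.030 (adjusted p 0.830, SE 0.10).

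EGR1 (ENSG00000120738; chromosome 5, 138465479 to 138469303) was at 250.8, 251.0 and 244.0 CPM in shNC and 183.9, 187.6 and 186.7 CPM in shDDX21. All 3 knockdown libraries were lower, by a log2 fold change of -0.42 (adjusted p 7.55e-23, SE 0.027). NR4A1 (chromosome 12, 52022832 to 52059507) went the other way, at 204.0, 202.1 and 194.0 CPM in shNC and 232.5, 230.5 and 227.9 CPM in shDDX21, a log2 fold change of 0.20 (adjusted p 1.04e-09, SE 0.027). IER2 (chromosome 19, 13150411 to 13156981) was at 84.2, 82.4 and 80.1 CPM in shNC and 73.9, 74.8 and 75.7 CPM in shDDX21, a log2 fold change of -0.14 (adjusted p 0.00181, SE 0.039). With upper-quartile scaling IER2 was no longer called (-0.069, adjusted p 0.131). DUSP1 (chromosome 5, 172768096 to 172771195) was at 17.4, 16.4 and 17.4 CPM in shNC and 21.05, 22.2 and 19.5 CPM in shDDX21, a log2 fold change of 0.29 (adjusted p 0.000985, SE 0.078). The highest human library exceeded the lowest of its group by at most 1.25 times in any of the 10 genes.

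Set side by side, JUN and NR4A1 rose in both experiments, and EGR1 was called in opposite directions, up in cKO and down in shDDX21. The difference between the 2 log2 fold changes, mouse minus human, was tested in 1 model over all 12 libraries for 10313 genes matched by symbol. It was called for 4 of the 7 shared genes, with the mouse value above the human one for 3 and below it for 1. Of all matched genes, 56.2% were called, 35.8% above and 20.4% below. EGR1 had the largest difference, 4.05 (adjusted p 1.81e-09, SE 0.15), followed by NR4A1 at 1.33 (adjusted p 0.00547, SE 0.34) and JUN at 0.73 (adjusted p 0.00625, SE 0.19). DUSP1 differed by -0.58 (adjusted p 0.00285, SE 0.13), from -0.29 in the mouse to 0.29 in the human cells. The differences for FOS (0.36, adjusted p 0.155, SE 0.18), JUNB (-0.15, adjusted p 0.835, SE 0.54) and IER2 (-0.19, adjusted p 0.714, SE 0.41) did not pass the test, and the SE of JUNB and IER2 leave room for large differences either way. The model used 1 spread per gene for both experiments, though the mouse libraries varied more. Its SE for EGR1 (0.15) and NR4A1 (0.34) were below those of the mouse changes alone (0.17 and 0.40). The p-values of these differences may therefore be too small. Species, cell source, deletion against knockdown and the time without the helicase all differ between the experiments and cannot be told apart.

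**Figure D4:**
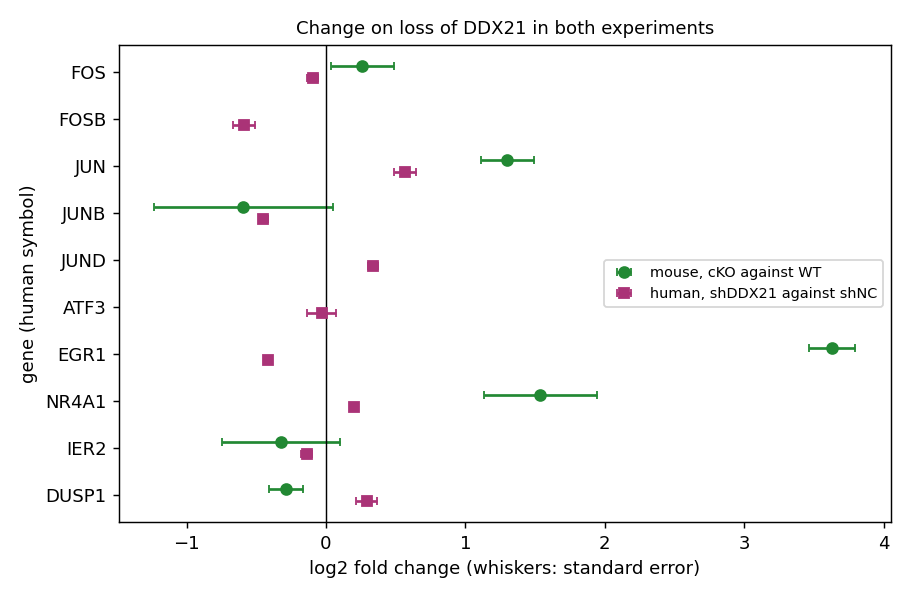
Log2 fold change of each immediate-early gene, cKO against WT for the 7 tested mouse genes and shDDX21 against shNC for the 10 human genes, with error bars of 1 SE. Egr1 lies at 3.63 in the mouse and -0.42 in the human cells, and the mouse Junb and Ier2 bars cross 0.

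Levels can be compared between genes once divided by exon length, as RPKM, which is CPM per kilobase of exon. In WT mouse cells the order was led by Ier2 at 4.38 ± 2.01 RPKM, then Dusp1 at 1.87, Junb at 1.36, Jun at 0.607, Egr1 at 0.599, Fos at 0.513 and Nr4a1 at 0.202 RPKM. The libraries of neighbours overlapped from Dusp1 down to Fos, so their order there is not resolved. In cKO cells Egr1 came first at 7.41 ± 1.02 RPKM, apart from Ier2 at 3.51 RPKM, and Dusp1, Jun, Junb, Fos and Nr4a1 followed at 1.53, 1.5, 0.910, 0.619 and 0.598 RPKM with overlapping neighbours. In the human shNC cells the order was JUNB at 87.8, EGR1 at 79.2, JUND at 54.3, NR4A1 at 27.4, FOS at 19.1, IER2 at 16.0, DUSP1 at 8.47, JUN at 4.18, FOSB at 3.86 and ATF3 at 2.71 RPKM, and only JUN and FOSB overlapped. With the knockdown JUND led at 68.7 RPKM, ahead of JUNB at 64.1 and EGR1 at 59.3 RPKM, and these did not overlap. RPKM values of the experiments were scaled separately, so levels are not compared between species beyond their order.

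As shares of the JUN genes' summed RPKM, JUNB went from 60.03% ± 1.09 in shNC to 46.2% ± 0.542 in shDDX21 and JUND from 37.1% ± 1.28 to 49.4% ± 0.694 (SD, n = 3 each), while JUN was at 2.86% and 4.45%. In the mouse, where no reads were counted for Jund, Jun made up 37.2% ± 17.7 of the counted JUN-gene RPKM in WT and 64.4% ± 10.7 in cKO, and the ranges, 23.9 to 57.2% and 52.6 to 73.4%, overlapped. The summed CPM of all 10 genes was 22.0 ± 5.73 in WT and 53.8 ± 9.14 in cKO. Without Egr1 the sums were 19.3 ± 5.67 and 20.6 ± 4.78, so that Egr1 went from 12.7% to 62.0% of the total. In the human cells the sums were 939.8 ± 22.5 and 883.1 ± 5.25, and without EGR1 691.2 ± 18.6 and 697.0 ± 5.25.

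The proteins that hold this response in check were taken as a list of 9 genes: the EGR1 corepressors Nab1 and Nab2, the JUN-degrading ubiquitin ligases Fbxw7 and Cop1, and the Sprouty and Spred inhibitors of RAS and MAP kinase signalling. In the mouse 5 of 9 rose and 1 fell, with a median log2 fold change of 0.48. Shares of calls over all genes, against which the counts of this list and of those that follow are to be read, were 20.7% higher and 15.8% lower in the mouse and 25.3% and 27.4% in the human experiment. Nab2, which is itself a known EGR1 target, went from 0.262 ± 0.179 CPM in WT to 4.68 ± 0.846 CPM in cKO cells (SD, n = 3 per group). Its log2 fold change was 4.12 (adjusted p 0.000131, SE 0.35). Nab1 rose by 0.74 and Cop1 fell by 0.22 on the log2 scale. In the human cells 2 of 9 rose and 4 fell, with a median of -0.096. SPRY1 rose by 0.78 and NAB1 by 0.37, and SPRY4 fell by 1.17, SPRED1 by 0.38 and COP1 by 0.30, while NAB2 was at 51.8 CPM in both groups (adjusted p 0.979). Nab1 and Cop1 had the same direction of call in mouse and human cells, and Spry4 (0.49 and -1.17) and Spred1 (0.53 and -0.38) in opposite directions.

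Other MAP kinase phosphatases of the DUSP1 family belong to the same group of inhibitors. In the mouse Dusp4, Dusp6, Dusp5 and Dusp2 rose by 2.49, 1.88, 1.05 and 0.48 on the log2 scale, Dusp6 from 4.30 to 15.9 CPM. Human DUSP4 and DUSP2 fell by 1.11 and 0.51, and DUSP5 and DUSP6 were not called (adjusted p 0.285 and 0.986). Dusp5 and Dusp6 were chosen for mention after their values were seen.

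**Figure D5:**
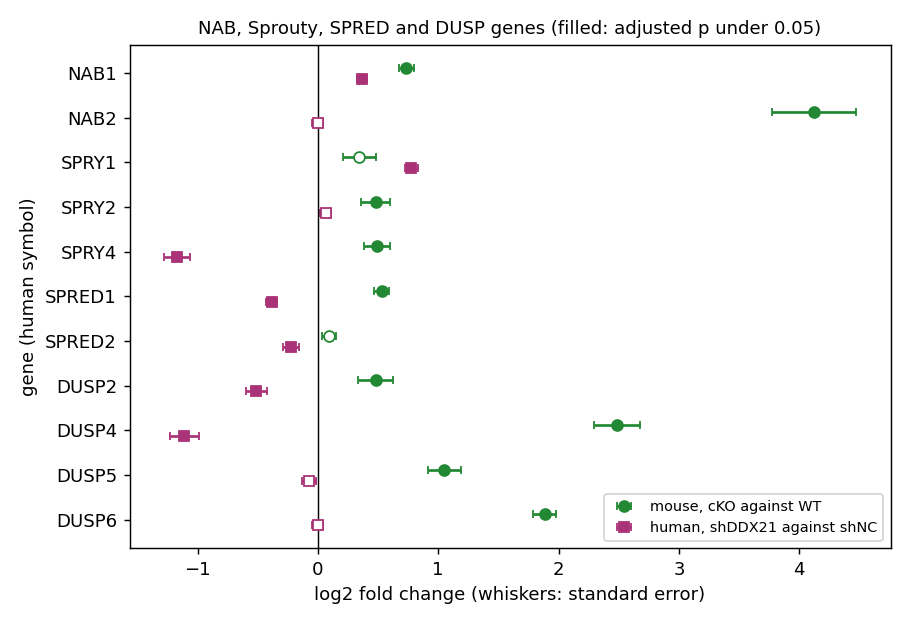
Log2 fold change (horizontal axis) of NAB, Sprouty, SPRED and DUSP genes, mouse cKO against WT and human shDDX21 against shNC, with error bars of 1 SE and filled symbols where a gene was called. Nab2 is at 4.12 in the mouse and close to 0 in the human cells, and Nab1 lies above 0 in both.

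A wider list of 40 other immediate-early genes had 31 tested in the mouse, of which 14 rose and 2 fell (median 0.28). Of these, 37 were matched and tested in the human experiment, where 8 rose and 20 fell (median -0.11). Of 11 genes called in both, 3 had the same direction and 8 were higher in cKO and lower in shDDX21. Of 3061 matched genes called in both experiments, 56.7% had the same direction, 30.3% were higher in cKO and lower in shDDX21 and 13.0% the reverse, which is also the background for the genes of the other lists named as called in both. The zinc-finger genes Klf6 (0.40 and 0.26) and Klf10 (0.19 and 0.42) and the kinase gene Sgk1 (1.71 and 0.46) rose in both. The antiproliferative gene Btg2 (1.85 and -0.62) and the coactivator gene Cited2 (0.45 and -1.06), the MAP kinase phosphatases Dusp2 (0.48 and -0.51) and Dusp4 (2.49 and -1.11), and the cytokine and NF-κB inhibitors Socs3 (0.90 and -1.45) and Tnfaip3 (0.64 and -0.38) were called in opposite directions. So were Trib1 (1.40 and -0.51) and the survival gene Mcl1 (0.22 and -0.087). Plk2, a polo-like kinase gene, was the extreme of the mouse list, from 0.281 to 91.8 CPM (8.33, adjusted p 7.11e-08). MYC fell by 1.17 on the log2 scale in the human cells (adjusted p 2.49e-44), and mouse Myc was at -0.40 (adjusted p 0.0940).

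Of 19 upstream kinases and factors, 5 rose and 3 fell in the mouse (median 0.036) and 5 rose and 8 fell in the human cells (median -0.036). In the mouse the SRF cofactor gene Mrtfb rose by 0.65 and Elk3, an SRF partner that can repress, by 0.51. In human cells the p38 kinase gene MAPK14 fell by 0.98 and ELK3 by 0.79. The JNK gene Mapk9 fell in both (-0.17 and -1.01) and the JNK-activating kinase gene Map2k4 rose in both (0.16 and 0.11). Of 11 further genes for AP-1 partners, 8 were tested in the mouse, with 3 called higher and 1 lower (median 0.10), and 10 in the human cells, with 4 higher and 2 lower (median 0.013). Maff, a small MAF protein gene, was at 1.04 and -0.66 and Mafg at -0.28 and 0.26, each called in opposite directions. Atf7 rose in both (0.19 and 0.14), and Fosl2 rose in the mouse by 0.40.

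Immediate-early transcripts can move with handling, so chaperone genes known to respond to heat and dissociation were read beside them. The list held 10 genes, and those that could not be matched or tested are missing from these counts. Of 7 tested in the mouse, 4 fell (median -0.12), and of 8 in the human cells 7 fell and 1 rose (median -0.35). The heat-shock genes HSPA1A and HSPA1B were not matched in the human experiment. Hsph1 (-0.44 and -0.69), Hsp90aa1 (-0.22 and -0.75), Hspa8 (-0.26 and -0.048) and Hspd1 (-0.12 and -0.22) fell in both. Of the 8 stress genes linked to ATF4, 7 were tested in the mouse, with 2 higher and 2 lower (median 0.089), and 8 in the human cells, with 4 higher and 1 lower (median 0.060). Ddit4, an inhibitor of mTOR signalling, was at 4.99 and -0.44, Atf4 itself at -0.20 and 0.39, and Sesn2 rose in both (1.90 and 0.38). Whether handling had a part in the values of the immediate-early genes was not tested.

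The genes whose log2 CPM was most like that of FOS over the 6 libraries of an experiment were looked up among genes with a mean of at least 5 CPM. In the mouse these were Mkrn1, Focad and Taf6, with Pearson's r of 0.967, 0.962 and 0.949 among 9678 genes compared, of which 12 had r above 0.9. For human FOS they were HSF2, HAUS4 and ELP5, with r of 0.993, 0.991 and 0.985 among 11084 genes, of which 290 had r above 0.9. The points share libraries and their scaling, mouse Fos rests on 21 to 39 counts, and these values are a description.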

How the data were processed

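Polyadenylated RNA was sequenced in 12 libraries. The deposited raw tables hold whole-number read counts per gene with exon lengths, and STAR, featureCounts, DESeq2, mm10 and hg38 are named in the submitters' processing notes. The strand setting and the treatment of reads fitting several genes are not given in the sources used here. A deposited normalized table (unit: signal) equals counts divided by 1 constant per library and was used for symbols only. GENCODE M21 lists 99.5% of the mouse identifiers, 99.4% of them at an identical position.

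Tests on the counts used edgeR 4.0.16 under R 4.3.3 (filterByExpr, TMM scaling, glmQLFit and glmQLFTest, two-sided) in each experiment, and calls needed a p under 0.05 after Benjamini-Hochberg adjustment over all genes tested. SE is the size of the log2 fold change divided by the root of F. The difference between experiments was an interaction in 1 fit of 12 libraries, with 1 spread per gene shared by both. Libraries were compared by chi-square over genes (1.54 to 25.3 per degree of freedom between replicates), and none was taken as a repeat of another. With 3 against 3, the smallest two-sided p of an exact permutation test is 0.1, so each gene's test is the model's. The script was tested on simulated data. Intervals and floors cover counting error only.

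The text names the 10 genes, from each list the called genes with the 2 smallest p per experiment and those called in the same direction in both, and the 3 genes most like FOS. Those called in opposite directions, human NAB2, Dusp5, Dusp6 and mouse Myc were added after their values were seen. The genes and lists were chosen with earlier results of these data known. Alternatives were RLE, upper-quartile and total-count scaling, other count filters, DESeq2 1.42.0, voom in limma 3.58.1, a replicate block, a 2-fold minimum, leaving out each library, and a GC-content offset chosen after seeing the data. Promoters came from RefSeq, with no entry for Ier2, and that of Egr1 is not used here.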

Additional observations from a re-analysis of the deposited data

Results flagged for a closer look

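For 4 of the 7 immediate-early genes tested in both experiments, the change in mouse cKO cells differed from that in human shDDX21 cells. The test was edgeR's quasi-likelihood test of the difference of log2 fold changes, mouse minus human. It called 56.2% of all 10313 matched genes, a share close to that of 4 of 7. EGR1 differed by 4.05, with 33.2 ± 4.58 CPM in cKO against 2.69 ± 0.543 CPM in WT and 186.1 ± 1.90 CPM in shDDX21 against 248.6 ± 4.00 CPM in shNC (SD, n = 3 each). NR4A1 differed by 1.33 and JUN by 0.73, both with increases in each experiment. DUSP1 differed by -0.58, and its mouse value alone did not pass the test.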

How the results depend on the processing

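The mouse count of 3 genes called higher was the same in all alternatives that kept every library and ran from 2 to 3 with 1 library left out. The count called lower, 0, became 1 (Dusp1) with the GC-content offset and stayed at 0 with 1 library left out. In the human cells 4 genes were called higher and 5 lower. With upper-quartile scaling 3 were called lower, and with a 2-fold minimum 0 were called higher and 0 lower, since no change reached that size. With 1 library left out the counts were 4 to 4 higher and 4 to 5 lower. The difference between experiments stayed at 3 genes above and 1 below in all 17 alternatives. Each of these shared 1 spread per gene between the experiments, so that sharing was not varied. The values of single genes under the alternatives were their fold changes within an experiment and the differences between experiments, counted together. Of these, 352 stayed on their side of the threshold, 11 lost the call and 1 gained it. The differences all stayed, so every lost or gained call was of a fold change within an experiment. Scaling to total counts moved the share of increases among all mouse calls from 56.6% to 68.9%, and upper-quartile scaling moved the human share from 48.0% to 57.4%, while the median of all genes moved by less than 0.1 on the log2 scale.

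The replicate block left the counts at 3 and 0 in the mouse, 4 and 5 in the human cells and 3 and 1 for the difference. The labels name no link between same-numbered libraries beyond the number. Correlations of their deviations from the group means were 0.32, -0.18 and 0.013 in the mouse and -0.014, -0.0024 and -0.00086 in the human experiment. So few values cannot decide whether any of these libraries shared a batch. At this depth mouse Fosb and Atf3 cannot be tested, and 10 to 60 counts lie behind Nr4a1 and 21 to 39 behind Fos. Mouse Jund, with 0 counts in every library, cannot be tested either, and the reason for its lack of counts was not tested.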
